A study of Mus musculus with 45 samples.

Results

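The liver of mice fed a high-cholesterol diet with the Gl-2 extract of the medicinal mushroom Ganoderma lucidum (HCD+Gl-2) was compared with the liver of mice fed the high-cholesterol diet alone (HCD). The comparison rests on 6 of the 45 arrays of the series, the 3 liver arrays labelled with each of these diets, and was read over all 22080 genes of the deposited table. All mice were male C57BL/6, 7 weeks old at the start, and were killed on day 43 after 8 h without food and water. HCD was the purified AIN-93 diet with 0.5% cholesterol, and HCD+Gl-2 was the same diet with 1.0% of a freeze-dried hydroalcoholic extract of fruiting bodies grown on oak sawdust to which 10 mM acetylsalicylic acid had been added. The groups set beside them were Control (AIN-93 alone), HCD+Gl-1 (1.0% of an extract grown without acetylsalicylic acid), HCD+Sim (the cholesterol diet with 0.03% simvastatin) and the kidneys of the HCD and HCD+Gl-2 mice. Each group held 8 mice, and their RNA was pooled. Pool A held 4 mice, pool B the other 4, and pool C was made by joining pools A and B, which leaves 2 separate pools behind 3 arrays, and a p-value measures the spread between arrays, not between mice.

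The liver makes most of the body's cholesterol and fatty acids, and the genes of both routes are switched on by sterol regulatory element-binding proteins when sterols or insulin call for it. Excess fatty acids are oxidised under the nuclear receptor PPAR alpha, whose targets include the Cyp4a omega-hydroxylases, while metallothioneins bind zinc and copper and rise with metals, glucocorticoids and inflammation. Immediate early genes such as Egr1, Fos and Jun need no new protein for their transcription and rise within minutes of a stimulus, heat shock genes respond to misfolded proteins, and clock genes rise and fall with the time of day and with feeding.

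Promoter sequences are shown for the metallothionein pair, the Hspa1 pair and the clock gene Ciart, because the first and the last read higher in every HCD+Gl-2 array and the Hspa1 pair in pools A and C. In pool B Hspa1b lay just above the HCD arrays and Hspa1a lay within them. The sequences are the 250 bases before the transcription start from RefSeq on build GRCm38.p6, 5′ to 3′ on the strand of the gene. In Mt1 (chr8:94178839-94179088, plus strand) and Mt2 (chr8:94172368-94172617, plus strand) capitals mark metal response element cores (TGCACNC or TGCGCNC on either strand), of which Mt1 held 1 and Mt2 held 3.
Mt1: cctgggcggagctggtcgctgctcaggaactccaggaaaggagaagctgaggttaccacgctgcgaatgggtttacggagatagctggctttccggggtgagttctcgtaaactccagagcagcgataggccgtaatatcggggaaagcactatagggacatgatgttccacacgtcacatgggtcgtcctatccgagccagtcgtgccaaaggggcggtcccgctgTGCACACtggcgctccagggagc
Mt2: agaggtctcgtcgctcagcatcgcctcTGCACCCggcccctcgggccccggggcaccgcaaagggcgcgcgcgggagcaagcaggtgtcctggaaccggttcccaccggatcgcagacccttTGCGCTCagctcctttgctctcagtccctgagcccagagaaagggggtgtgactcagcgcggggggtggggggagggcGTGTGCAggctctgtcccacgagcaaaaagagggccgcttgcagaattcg
In Hspa1a (chr17:34972157-34972406, minus strand) and Hspa1b (chr17:34959239-34959488, minus strand) capitals mark the paired heat shock unit (GAANNTTC or TTCNNGAA, both of which read the same on either strand), found once in each. The windows have the same base at 247 of 250 positions.
Hspa1a: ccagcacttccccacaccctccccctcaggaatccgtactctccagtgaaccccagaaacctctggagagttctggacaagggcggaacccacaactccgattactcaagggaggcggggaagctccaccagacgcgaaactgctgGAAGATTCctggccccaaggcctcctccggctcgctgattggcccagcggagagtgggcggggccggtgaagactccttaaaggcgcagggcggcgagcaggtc
Hspa1b: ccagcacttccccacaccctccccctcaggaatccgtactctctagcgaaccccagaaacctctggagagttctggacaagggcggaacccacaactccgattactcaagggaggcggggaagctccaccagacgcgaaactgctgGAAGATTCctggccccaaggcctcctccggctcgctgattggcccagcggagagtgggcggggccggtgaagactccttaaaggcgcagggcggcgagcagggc
In Ciart (chr3:95882229-95882478, minus strand) capitals mark the E-box CACGTG, which reads the same on both strands and is the site of the CLOCK and BMAL1 pair. It was found 3 times.
Ciart: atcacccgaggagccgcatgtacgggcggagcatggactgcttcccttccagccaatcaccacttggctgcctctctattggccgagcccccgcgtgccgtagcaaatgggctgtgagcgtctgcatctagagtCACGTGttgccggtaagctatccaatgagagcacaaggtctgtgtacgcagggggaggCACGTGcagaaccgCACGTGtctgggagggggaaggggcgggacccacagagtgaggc
Of 32851 promoters in the table, 21.4% held a metal response element core, 12.8% a heat shock unit and 6.02% this E-box in the same 250 bases, so a match is a description and not evidence of use.

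The tissue label was checked against marker genes, because the description field of the liver samples names brain. The mean log2 intensity of 12 hepatocyte genes lay between 12.86 and 12.96 in the 15 liver arrays, between 9.23 and 9.36 in kidney and between 6.95 and 7.49 in brain, and the 8 brain genes lay between 6.48 and 6.69 in liver against 11.38 to 11.60 in brain. The liver arrays therefore carried the markers of their tissue label. The 3 HCD+Gl-2 arrays correlated with each other at 0.9907 to 0.9939 over all genes. Pools A and B of the group stood apart by over 1 log2 unit in 36 genes, against 14 in HCD+Sim and 8 in each of the other liver groups. Pool A was the higher one in 28 of the 36. In 25 of those 28 genes pool C read above both pools, although it is described as their mixture. A mixture of equal parts of A and B would read 9.83 for Egr1, and pool C read 11.16.

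A gene was called differentially expressed (DE) when its log2 fold change exceeded 0.7 in size and had a Benjamini-Hochberg adjusted p of 0.05 or less in limma, with 1 model fitted to all 45 arrays. Below, rose and fell are used for such genes alone. In HCD+Gl-2 liver 46 genes rose (0.208% of those tested) and 21 fell (0.0951%). At the adjusted p alone 182 genes were higher (0.824%) and 193 lower (0.874%). The median log2 fold change of all genes was 0.006. With 3 arrays against 3 an exact two-sided permutation test of a single gene cannot give a p under 0.1, so the calls rest on the spread shared over the 45 arrays. With the spread of the 15 liver arrays alone 8 genes rose and 9 fell. In bulk tissue, fewer cells of a type and less RNA per cell cannot be told apart.

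The single arrays showed that the genes that rose did not all do so in the same pools. All 3 HCD+Gl-2 arrays lay above all 3 HCD arrays in 33 of the 46 genes that rose (7.27% of all genes did so), and below them in all 21 that fell (7.94%). The 13 genes with overlapping arrays were Btbd19, Bud13, Cabyr, Dusp6, Egr1, Fos, Hspa1a, Hsph1, Jun, Nr4a1, Pfkfb3, Ppp1r10 and Trib1, and in each it was pool B that did not exceed all HCD arrays. Pool B was nearest to the HCD level in 41 of the 46 genes that rose and in 15 of the 21 that fell. Its shift from the HCD mean was under 25% of the mean shift of pools A and C in 21 of the genes that rose, and 75% or more of it in 7. Among the genes that fell the corresponding counts were 1 and 9, and the median share was 64.9%, against 27.1% in the genes that rose. Pool C was farthest from the HCD level in 38 of the 46 genes that rose. The genes were picked from these same arrays, and the shares of all genes with these orders of pools were not counted. Without pool C 22 genes rose and 15 fell, and without pool B 78 rose and 30 fell.

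**Figure D1:**
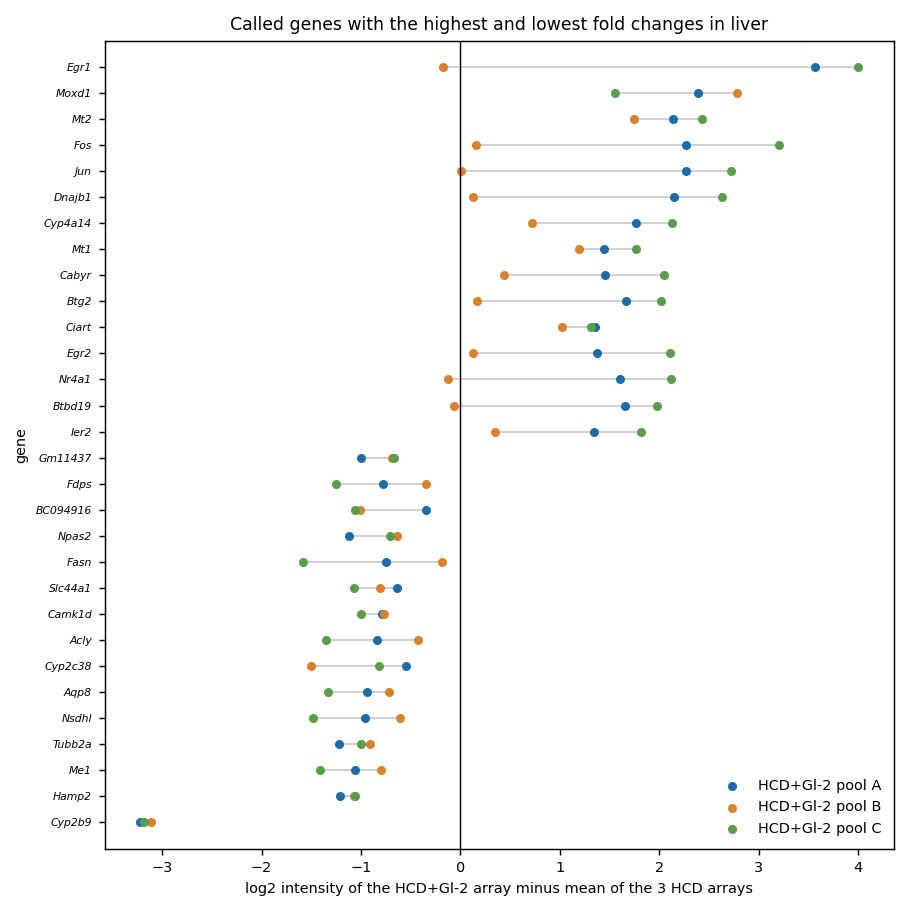
Shift of each HCD+Gl-2 liver array (pools A, B and C, coloured points) from the mean of the 3 HCD liver arrays, in log2 intensity, for the 15 DE genes with the highest and the 15 with the lowest fold change. Pool B lies near 0 for Egr1, Fos, Jun and Dnajb1, whereas all 3 arrays lie far from 0 for Mt2, Ciart, Me1 and Cyp2b9.

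The immediate early genes were high in pools A and C and at the HCD level in pool B. Egr1, a zinc finger factor induced by growth and stress signals, read 10.72 in pool A, 6.98 in pool B and 11.16 in pool C, against 7.14, 7.07 and 7.25 in the HCD arrays. Fos, a subunit of the AP-1 transcription factor, read 8.66, 6.55 and 9.60 in pools A, B and C against 6.26, 6.78 and 6.12. Jun, its partner, read 9.56, 7.29 and 10.01 against 7.25, 7.39 and 7.22. Pools A and C thus stood above every HCD array in all 3 genes, and pool B lay inside or below the HCD range. The mean log2 fold change was 2.47 for Egr1 (limma adjusted p = 0.00213), 1.88 for Fos (95% interval 1.23 to 2.53, adjusted p = 0.000427) and 1.67 for Jun (adjusted p = 0.00149), means that lie between pool B and the other pools. The SD of the HCD+Gl-2 arrays was 2.297 for Egr1, 1.561 for Fos, 1.456 for Jun and 1.33 for the heat shock gene Dnajb1. Their limma standard errors, 0.479, 0.32, 0.313 and 0.282, rest on the spread shared over the 45 arrays, with pool C counted as a full array. Intervals and p-values of genes split in this way, here and below, therefore understate the spread between their HCD+Gl-2 pools.

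The other immediate early factors kept that order of pools with smaller distances. Egr2 read 7.74, 6.499 and 8.48 against 6.34 to 6.41 in HCD, Nr4a1, an orphan nuclear receptor, 8.69, 6.97 and 9.20 against 7.01 to 7.15, and Btg2, an antiproliferative target of p53, 8.45, 6.95 and 8.80 against 6.71 to 6.85. Their log2 fold changes were 1.202, 1.201 and 1.29 (limma adjusted p = 0.00539, 0.0123 and 0.000315). Atf3 and Junb differed from these in that pool B had moved too: Atf3, a stress-induced repressor, read 7.74, 7.04 and 7.75 against 6.48 to 6.53, and Junb 7.90, 7.74 and 8.32 against 7.15 to 7.35. Of 22 Egr, Nr4a and related factors, 6 rose and none fell, with a median log2 fold change of 0.28, and of 11 AP-1 genes 4 rose and none fell, with a median of 0.39. Of 21 feedback genes that restrain these signals, Dusp6, Sik1 and Trib1 rose and the median was 0.25. By array the medians of the AP-1 list were 0.47 in pool A, 0.12 in pool B and 0.64 in pool C. These lists hold genes that the study itself named from these arrays, so their direction is not independent of them. Without pool C the calls of Egr1, Jun, Junb, Egr2, Nr4a1, Klf10, Dusp6 and Trib1 were lost, and the last 3 and Nr4a1 also lost theirs without pool A of HCD+Gl-2 or without some of the HCD arrays.

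Heat shock genes of the cytosol showed the same split between pools. Dnajb1, the HSP40 co-chaperone, read 9.54 in pool A, 7.51 in pool B and 10.01 in pool C, against 7.40, 7.35 and 7.40 in HCD (log2 fold change 1.64, 95% interval 1.06 to 2.21, limma adjusted p = 0.00049). Hspa1b, an inducible HSP70, read 9.12, 8.00 and 9.43 against 7.75, 7.97 and 7.79, and its near copy Hspa1a 8.05, 6.66 and 8.26 against 6.56 to 6.796. The transcripts of this pair are so alike that signal cannot be assigned to one of them with certainty. Hsph1, an HSP110 exchange factor, read 9.03, 7.58 and 9.48 against 8.04, 7.58 and 8.03, and its pool B lay at the lowest HCD array. The calls of Hspa1a, Hspa1b and Hsph1 were lost without pool C, that of Hspa1a also without 3 other arrays, and that of Hsph1 (adjusted p = 0.0494) without any single array except pool B of HCD+Gl-2. Of 20 cytosolic heat shock genes these 4 rose and none fell. The small nucleolar RNAs Snord14d and Snord14e, which lie inside the gene of the constitutive chaperone Hspa8, rose by 0.77 and 0.93, calls lost without pool C, while Hspa8 itself read 12.21, 11.81 and 12.38 against 11.72 to 11.96 and was not DE (0.31, adjusted p = 0.0572). Of 26 endoplasmic reticulum stress genes none was DE and the median was -0.09, and Derl3, which takes part in the removal of misfolded proteins there, read 7.96, 7.47 and 8.32 against 7.57, 6.83 and 7.67 (adjusted p = 0.233).

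**Figure D2:**
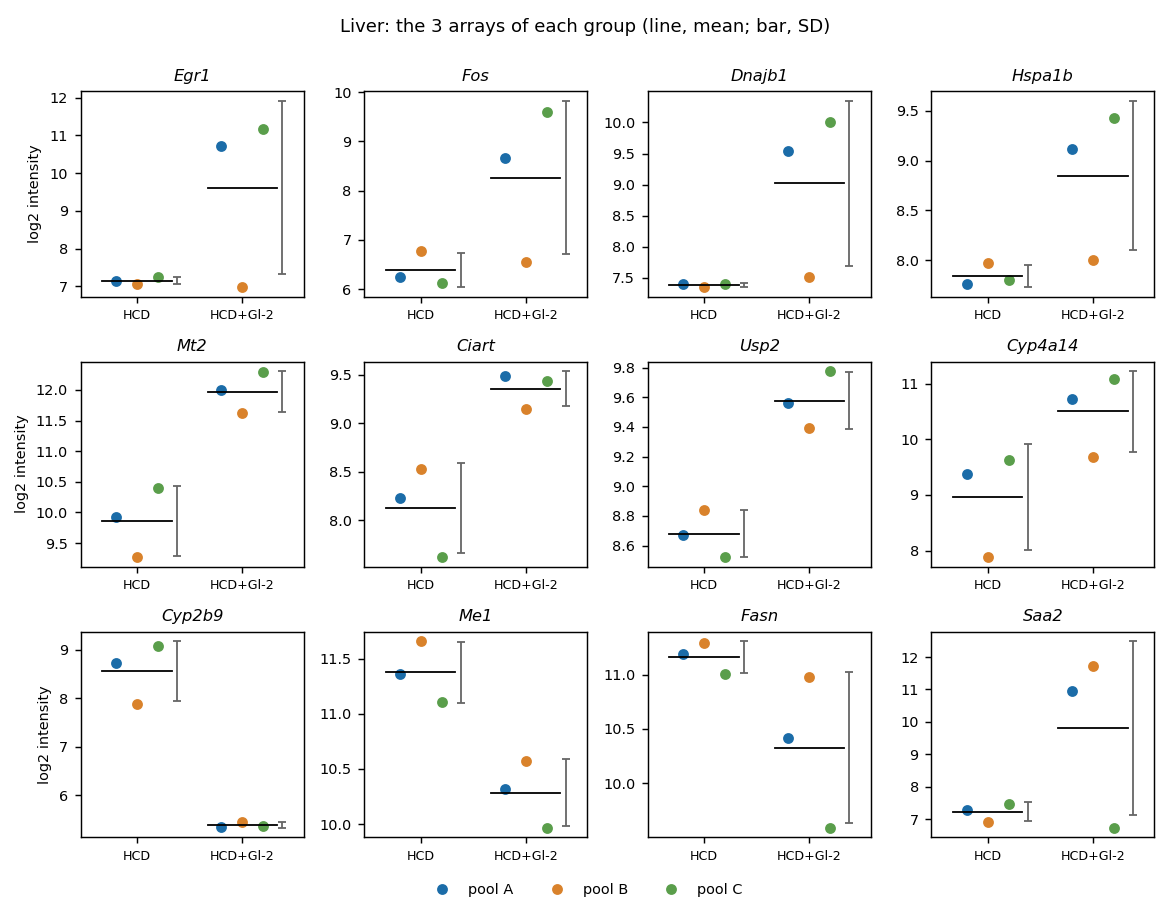
Log2 intensity of 12 genes in the 3 liver arrays of HCD and of HCD+Gl-2 (points, coloured by pool; line, mean; bar, SD), each panel on its own scale. Pool B of HCD+Gl-2 lies at the HCD level for Egr1, Fos and Dnajb1, all arrays of the groups are apart for Mt2, Ciart, Usp2, Cyp2b9 and Me1, and for Saa2 pool C lies low.

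Genes with other functions followed the pools A and C pattern. Pfkfb3, which makes the activator of glycolysis fructose 2,6-bisphosphate, read 9.01, 7.58 and 9.46 against 7.59 to 7.71 in HCD. Thbs1, a matrix protein that activates TGF beta, read 7.42, 6.796 and 7.67 against 6.45 to 6.58. Pfkfb3 and Thbs1 rose by 1.04 and 0.79. Plk3 and Btbd19, which are neighbours on the chromosome, rose by 1.03 and 1.19, and Ppp1r10, Bud13 and Foxa3 by 0.76, 0.84 and 0.78. All 7 calls, from Pfkfb3 to Foxa3, were lost without pool C, those of Ppp1r10 and Foxa3 also without pool A, and that of Ppp1r10 without pool A or C of HCD. Some genes were split between the pools without being called. Fkbp5, a glucocorticoid-induced co-chaperone, read 8.76, 7.75 and 9.28 against 7.95 to 8.27, Zbtb16 9.04, 7.89 and 9.47 against 8.29 to 8.51, and Igfbp1, a fasting-induced binding protein of insulin-like growth factors, 9.59, 7.91 and 10.20 against 8.57 to 8.96. Their pool B lay below all 3 HCD arrays and pools A and C above them. These 3 were chosen after their values were seen, from the 36 genes in which pools A and B stood apart.

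Metallothioneins rose in all 3 pools. Mt2 read 12.01, 11.62 and 12.29 in pools A, B and C of HCD+Gl-2 against 9.93, 9.27 and 10.41 in HCD, and Mt1 12.58, 12.33 and 12.90 against 11.19, 10.83 and 11.40. Every HCD+Gl-2 array lay above every HCD array in both genes, and the pools kept the same order in both diets, with B lowest and C highest. The log2 fold changes were 2.105 for Mt2 (95% interval 1.78 to 2.43, limma adjusted p = 1.38e-11) and 1.47 for Mt1 (1.26 to 1.68, adjusted p = 1.73e-12), and both calls held with each array left out. The genes lie side by side on the chromosome and have similar transcripts. The zinc transporters of the list, Slc30a1, Slc30a10, Slc39a4 and Slc39a14, were not DE, with log2 fold changes of 0.17, -0.36, 0.07 and 0.07.

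Among clock genes, 2 repressor-side genes rose in all pools and 1 activator fell. Ciart, a repressor of the CLOCK and BMAL1 pair, read 9.48, 9.15 and 9.44 against 8.23, 8.53 and 7.62 (log2 fold change 1.23, 95% interval 0.86 to 1.60, limma adjusted p = 6.97e-05), and Usp2, a deubiquitinase of clock proteins, 9.56, 9.39 and 9.78 against 8.68, 8.84 and 8.52 (0.90, adjusted p = 1.83e-05). Per1, Per2, Per3 and Tef were higher at the adjusted p alone, with log2 fold changes of 0.55, 0.53, 0.57 and 0.38 (adjusted p = 0.0416, 0.00354, 0.000315 and 0.0445). So 6 of 13 repressor and PAR bZIP genes were higher at the adjusted p, 12 of 13 had a positive value, and the list's median was 0.36, 0.32 and 0.38 in pools A, B and C. On the activator side Npas2, which can take the place of CLOCK, read 5.69, 6.17 and 6.10 against 6.96, 6.54 and 6.93 and fell by 0.82 (adjusted p = 0.0123), with the call lost on leaving out pool A of HCD+Gl-2 or pool A or C of HCD. Arntl, the gene of BMAL1, read 6.30, 6.02 and 6.23 against 6.63 to 6.83 and was lower at the adjusted p alone (-0.55, adjusted p = 0.000419), and Clock was not (-0.23, adjusted p = 0.27). The list of 6 activators and partners was divided, with 3 positive and 3 negative, and its median was -0.09, -0.25 and -0.05 in pools A, B and C. Wee1, a cell cycle kinase under clock control, rose in all pools, reading 8.03, 7.86 and 7.75 against 7.05 to 7.14 (0.78, adjusted p = 1.83e-05). The hour of sampling of each group is not given in the sources used here, and its part in these values was not tested.

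The largest single difference was the fall of Cyp2b9. This cytochrome P450 of the steroid and drug metabolizing Cyp2b family, which is female-predominant in mouse liver, read 5.34, 5.45 and 5.37 in HCD+Gl-2 against 8.71, 7.88 and 9.08 in HCD. The 3 HCD+Gl-2 arrays lay close together and the HCD arrays were spread more widely, with no overlap. The HCD+Gl-2 values lie under 6, the mean used for the dim gene filter. How far the low end of the array scale bears on their closeness and on the fold change was not tested. The log2 fold change was -3.17 (95% interval -3.60 to -2.74, limma adjusted p = 6.39e-13). Relatives gave no call: Cyp2b10, Cyp2b13, Cyp2b19 and Cyp2b23 had log2 fold changes of -0.49, -0.34, -0.19 and 0.25 and none was DE. Cyp2c38, of the Cyp2c family, fell by 0.95 (limma adjusted p = 0.00194), with 7.88, 6.92 and 7.61 against 8.24 to 8.54. Its call was lost without pool B of HCD+Gl-2, the lowest array. Of 28 measured genes of the Cyp2b, Cyp2c and Cyp3a list with their receptors these 2 were the ones that fell, none rose, and Por and Nr1i3, which encodes the receptor CAR, were higher at the adjusted p alone (0.54 and 0.43, adjusted p = 0.0015 and 0.043). Of 8 aryl hydrocarbon receptor genes none was DE at either threshold, with 3 of them negative and a median of 0.04.

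Enzymes that make fatty acids were lower in HCD+Gl-2, with pool C farthest from HCD and pool B nearest. Me1, the malic enzyme that supplies NADPH, read 10.32, 10.57 and 9.97 against 11.36, 11.66 and 11.11 (log2 fold change -1.09, 95% interval -1.36 to -0.82, limma adjusted p = 3.4e-06). Acly, which makes cytosolic acetyl-CoA from citrate, read 9.23, 9.64 and 8.71 against 10.05, 10.20 and 9.93 (-0.87, adjusted p = 8.11e-05). Fasn, fatty acid synthase, read 10.41, 10.98 and 9.59 against 11.19, 11.30 and 11.01 (-0.84, 95% interval -1.25 to -0.43, adjusted p = 0.0182). The groups did not overlap in any of the 3, but pool B of Fasn lay just below the lowest HCD array, and its pool C had moved farthest. Acss2, which makes acetyl-CoA from acetate, read 9.09, 9.39 and 8.88 against 9.77 to 10.08, and Acaca, the committing carboxylase, 9.48, 9.75 and 9.06 against 10.10 to 10.21, falls of 0.78 and 0.73. Pklr and Acacb were lower at the adjusted p alone (-0.50 and -0.58). In all, 5 of 14 fatty acid synthesis genes fell, none rose, 13 were negative, and the median was -0.54, or -0.48, -0.17 and -0.83 in pools A, B and C. Srebf1, whose protein drives these genes, read 10.28, 10.59 and 9.88 against 10.61 to 10.67 (-0.39, adjusted p = 0.183). Without pool C the calls of Acly, Fasn, Acaca and Acss2 were lost, those of Fasn and Acss2 also without pool B of HCD and that of Fasn without pool A of HCD, and that of Me1 held with any array left out.

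Of the enzymes that lengthen and desaturate fatty acids, Elovl5 fell, reading 11.63, 11.79 and 11.31 against 12.27 to 12.33 (-0.73, limma adjusted p = 1.83e-05), a call lost without pool C. Elovl6 had 10.28, 10.45 and 10.09 against 10.98, 11.25 and 10.62, a difference of -0.68 that passed the adjusted p (0.00442) and missed the fold threshold. Scd1, the main liver desaturase, was not DE (-0.08, adjusted p = 0.79). Of 13 such genes 10 were negative, with a median of -0.17.

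Cholesterol synthesis was lower at a few of its steps. Nsdhl, a late step that removes methyl groups from lanosterol products, read 8.12, 8.47 and 7.59 against 9.12, 9.31 and 8.80 (log2 fold change -1.02, 95% interval -1.34 to -0.69, limma adjusted p = 0.000165), and its call held with each array left out. Fdps, which makes farnesyl pyrophosphate, read 7.13, 7.55 and 6.65 against 7.85, 8.04 and 7.80 (-0.79, adjusted p = 0.00457), and lost its call without pool C. The diets did not overlap in either gene, and the pools again lay in the order B, A, C from high to low. Hmgcs1, Pmvk, Cyp51 and Dhcr7 were lower at the adjusted p alone (-0.57, -0.43, -0.47 and -0.62). Of 21 genes of the route 2 fell, none rose, 18 were negative, and the median was -0.27. The sterol sensing list gave no DE gene, with Insig2 (-0.60, adjusted p = 0.0092) and Soat2 (-0.40, adjusted p = 0.0014) lower at the adjusted p alone.

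**Figure D3:**
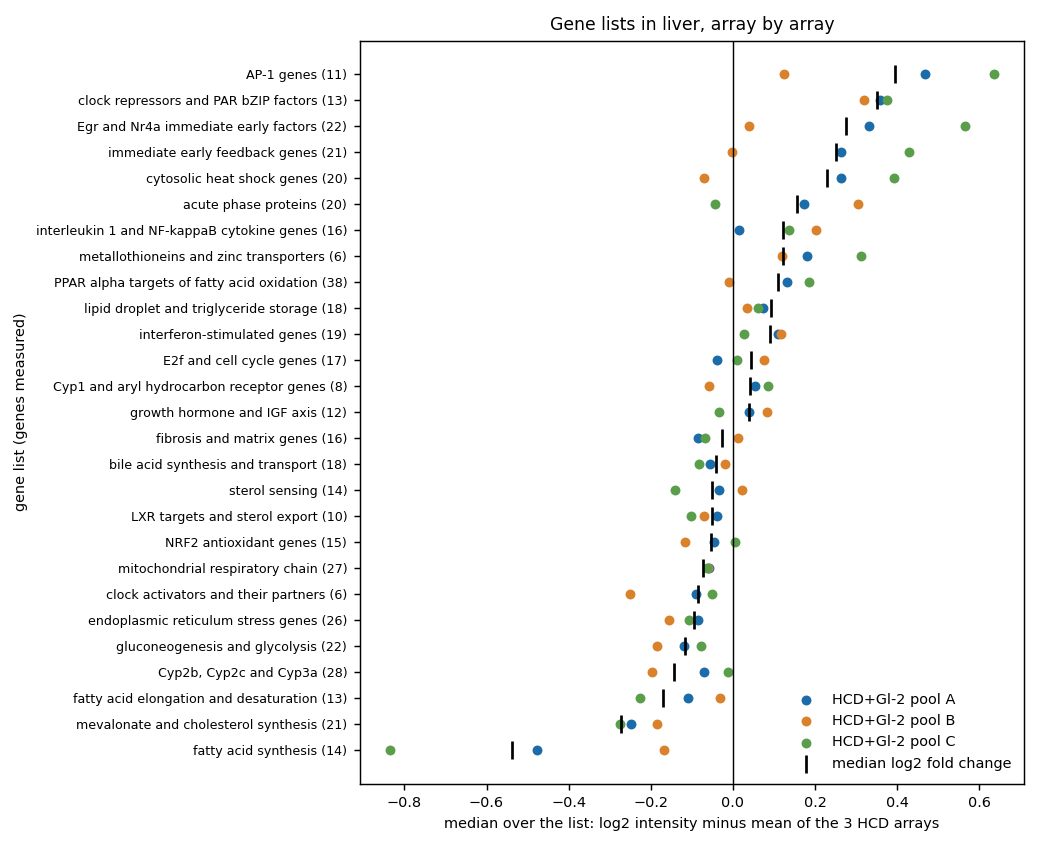
Median shift of 27 gene lists from the HCD mean in each HCD+Gl-2 liver array (coloured points) and the median of the log2 fold changes (black mark), in log2 units, with the number of measured genes in brackets. The fatty acid synthesis list has the lowest median log2 fold change, with medians of -0.48, -0.17 and -0.83 in pools A, B and C, and the AP-1, Egr and heat shock lists are higher in pools A and C than in pool B.

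Among targets of PPAR alpha the called genes were omega-hydroxylases of the Cyp4a cluster. Cyp4a14 read 10.73, 9.69 and 11.09 in HCD+Gl-2 against 9.38, 7.88 and 9.63 in HCD (log2 fold change 1.54, 95% interval 0.87 to 2.21, limma adjusted p = 0.0062), so that pool B of HCD+Gl-2 lay just above pool C of HCD. Cyp4a10, Cyp4a31 and Cyp4a32 rose by 0.93, 0.99 and 0.84, and their groups did not overlap. Pool B was the lowest array in both diets for all 4 genes, and each call was lost without pool C of HCD+Gl-2 and without pool B of HCD, and those of Cyp4a10 and Cyp4a32 also without pool A of HCD+Gl-2. These genes are close copies of each other, so their signals may not be separate measurements. The other 34 genes of the list held no call: Cpt1a and Pdk4, for example, had log2 fold changes of 0.22 and -0.06. Of the 38 genes 27 were positive and 11 negative, and the median was 0.11, or 0.131, -0.010 and 0.185 in pools A, B and C. At the adjusted p alone 5 were higher, the 4 called genes among them, and none was lower. All 3 HCD+Gl-2 arrays lay above all 3 HCD arrays in 12 (7.27% of all genes did so), again with the 4 called genes among them. Cyp7b1, an enzyme of the alternative bile acid route, read 11.21, 11.21 and 11.26 against 10.75 to 10.87, groups that did not overlap, and missed both thresholds (0.42, adjusted p = 0.0514), and Cyp7a1, which controls the main route, was at 0.04. Of 18 bile acid genes and 10 LXR target genes none was DE.

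Of 20 acute phase genes none was DE, 14 were positive, and the list's median was 0.17, 0.30 and -0.04 in pools A, B and C. In 3 of the genes with the highest fold changes pools A and B were high and pool C was not. Saa2, a serum amyloid A protein of the acute phase, read 10.97 in pool A and 11.72 in pool B, but 6.74 in pool C, against 7.29, 6.91 and 7.48 in HCD. Orm2 read 10.09, 10.10 and 7.42 against 7.32 to 7.72, and Lcn2, a siderophore-binding protein, 11.14, 11.81 and 9.02 against 9.06 to 9.34. The values of pool C lay among or below the HCD arrays in all 3 genes, which is far under a mixture of pools A and B. None was called over the 3 arrays (Saa2 log2 fold change 2.58, 95% interval 0.83 to 4.33, limma adjusted p = 0.138), while Saa2, Saa1, Orm2 and Lcn2 were all called higher with pools A and B only. Pool C was the lowest array for Saa2 in the other treated groups also, with 11.28, 11.96 and 7.89 in HCD+Gl-1 and 11.95, 11.24 and 7.12 in HCD+Sim. Saa1 and Saa2 are close copies.

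Interleukin 1 genes rose in all pools. Il1b read 6.67, 6.49 and 7.07 against 5.86, 6.07 and 5.77 (log2 fold change 0.84, 95% interval 0.55 to 1.14, limma adjusted p = 0.000457) and Il1a 7.35, 7.07 and 7.64 against 6.75, 6.82 and 6.26 (0.74, adjusted p = 0.00241), while Tnf was lower at the adjusted p alone (-0.44, adjusted p = 0.0189). Both calls were lost without pool C, and that of Il1a also without pool C of HCD. The 14 other cytokine and NF-kappaB genes, Tnf among them, gave no call. The 10 Kupffer cell and macrophage markers had a mean level of 8.09 to 8.33 in HCD+Gl-2 and 8.09 to 8.15 in HCD, 9 of the 10 were positive and none was DE, and the 9 neutrophil markers lay between 5.45 and 5.53 against 5.38 and 5.52. Their part in the interleukin 1 values was not tested. Mx2, an interferon-induced GTPase, rose by 0.71, with 6.66, 6.35 and 6.46 against 5.66 to 5.90, and was the 1 gene called of 19 interferon-stimulated genes. Its call was lost without pool A of HCD+Gl-2 and without pool C of HCD.

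Several genes outside these groups changed in all pools. Moxd1, a copper monooxygenase related to dopamine beta-hydroxylase, read 10.20, 10.59 and 9.36 against 7.88, 7.59 and 7.96 (log2 fold change 2.24, 95% interval 1.40 to 3.08, limma adjusted p = 0.00131). Cyp21a1, steroid 21-hydroxylase, read 7.78, 7.38 and 7.29 against 6.41 to 6.46 and rose by 1.05, and Fgl1, a hepatocyte-secreted fibrinogen-like protein, read 11.17, 11.41 and 10.52 against 10.00 to 10.38 and rose by 0.84. Pool C was the lowest of the 3 for each, and the call of Fgl1 was lost without pool A or B of HCD+Gl-2 or pool A or C of HCD. E2f8, a repressor of the cell cycle and of polyploid growth in hepatocytes, read 8.03, 7.74 and 8.24 against 7.39, 6.81 and 7.30 and rose by 0.84 (adjusted p = 0.00821), a call lost without pool C and without pool B of HCD. The other 16 genes of its list gave no call. Cabyr, known as a calcium-binding protein of sperm, rose by 1.31, but its pool B, at 6.799, lay under pool B of HCD, at 6.84.

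Among the genes that fell, Hamp2, a paralog of the iron hormone hepcidin, read 8.61, 8.75 and 8.76 against 9.74, 9.95 and 9.78 (log2 fold change -1.11, 95% interval -1.46 to -0.77, limma adjusted p = 9.92e-05). Aqp8, a water and ammonia channel, read 8.77, 8.99 and 8.38 against 9.59 to 9.79 and fell by 1.00. Tubb2a, a beta tubulin, read 7.13, 7.43 and 7.35 against 8.52, 7.76 and 8.76 and fell by 1.04, Camk1d by 0.85 and the choline transporter Slc44a1 by 0.84. All 5 were called with each array left out. Across all 67 DE genes 23 kept their call with each of the 6 arrays left out, 15 that rose and 8 that fell. Among them were Mt1, Mt2, Ciart, Usp2, Wee1, Cyp2b9, Me1 and Nsdhl. Of these, Ciart, Usp2 and Nsdhl lost theirs in fits to the liver arrays alone or the compared groups alone, and Mt2 and Me1 in the latter. Fos, Btg2, Dnajb1 and Cabyr were also among the 23, but lost theirs in both of those fits and with pools A and B only. As pool C is described as A and B joined, leaving out 1 array takes no mice out of the comparison.

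The remaining lists gave no or few calls. None of 27 respiratory chain genes, 16 fibrosis genes, 15 measured NRF2 genes, 12 growth hormone axis genes or 18 lipid droplet genes was DE, with medians between -0.07 and 0.09. Of 22 glucose metabolism genes Pfkfb3 alone was called. Within the lipid droplet list Cd36, a fatty acid carrier, was lower at the adjusted p alone (-0.53, limma adjusted p = 0.00217). Across the 14 marker lists no gene was DE, which includes 18 measured pancreas acinar and 15 skeletal muscle genes.

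Promoters were available for 44 of the 67 DE genes. A heat shock unit was found within 250 bases of the start in 6 of the 27 genes that rose and had a promoter, namely Egr2, Hspa1a, Hspa1b, Hsph1, Jun and Ppp1r10, a share of 22.2% against 14.5% of all genes with a promoter. All 6 belong to the genes in which pool B moved by under 25% of pools A and C, of which 15 had a promoter. That group was formed from these same arrays and includes the heat shock genes Hspa1a, Hspa1b and Hsph1. The windows of Hspa1a and Hspa1b are near copies, so their matches are not separate. Several genes have more than 1 promoter in the table and were counted when any of them matched. A metal response element core was found in 33.3% of the genes that rose and in 29.4% of those that fell, against 23.8% of all genes, and the E-box in 14.8% and 11.8% against 6.86%. AP-1 sites (TGAGTCA) were found in 7.41% and 11.8% against 5.16%, and sterol regulatory elements (TCACNCCAC) in 0% and 5.88% (Camk1d alone) against 1.22%. The CRE (TGACGTCA) was found in 3.7% and 5.88% against 1.77%. For the CArG box (CCWWWWWWGG, W being A or T) the shares were 3.7% and 0% against 1.62%. No gene set test was made on these counts.

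Set beside the Control diet, the HCD+Gl-2 mean lay beyond all 3 Control arrays, in the direction of the change, for most DE genes. This held for 42 of the 46 genes that rose and 16 of the 21 that fell. The mean lay within the Control range in 3 and 5 of them. The share of all genes was not counted. The DE genes were picked by these same HCD+Gl-2 arrays, so the counts describe them and do not test a difference from Control. Cyp2b9 read 5.28, 5.17 and 5.62 in Control, so its 5.34 to 5.45 in HCD+Gl-2 fell in the Control range, all under the dim gene limit of 6. Moxd1 read 10.00 to 10.31 in Control, and pools A, B and C of HCD+Gl-2 lay within, above and below that range. Mt2 read 10.78 to 11.02 in Control, which all 3 HCD+Gl-2 arrays exceeded. Nsdhl and Fdps read 8.93 to 9.89 and 7.77 to 8.61 in Control, and their HCD+Gl-2 arrays lay under those of both other diets.

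**Figure D4:**
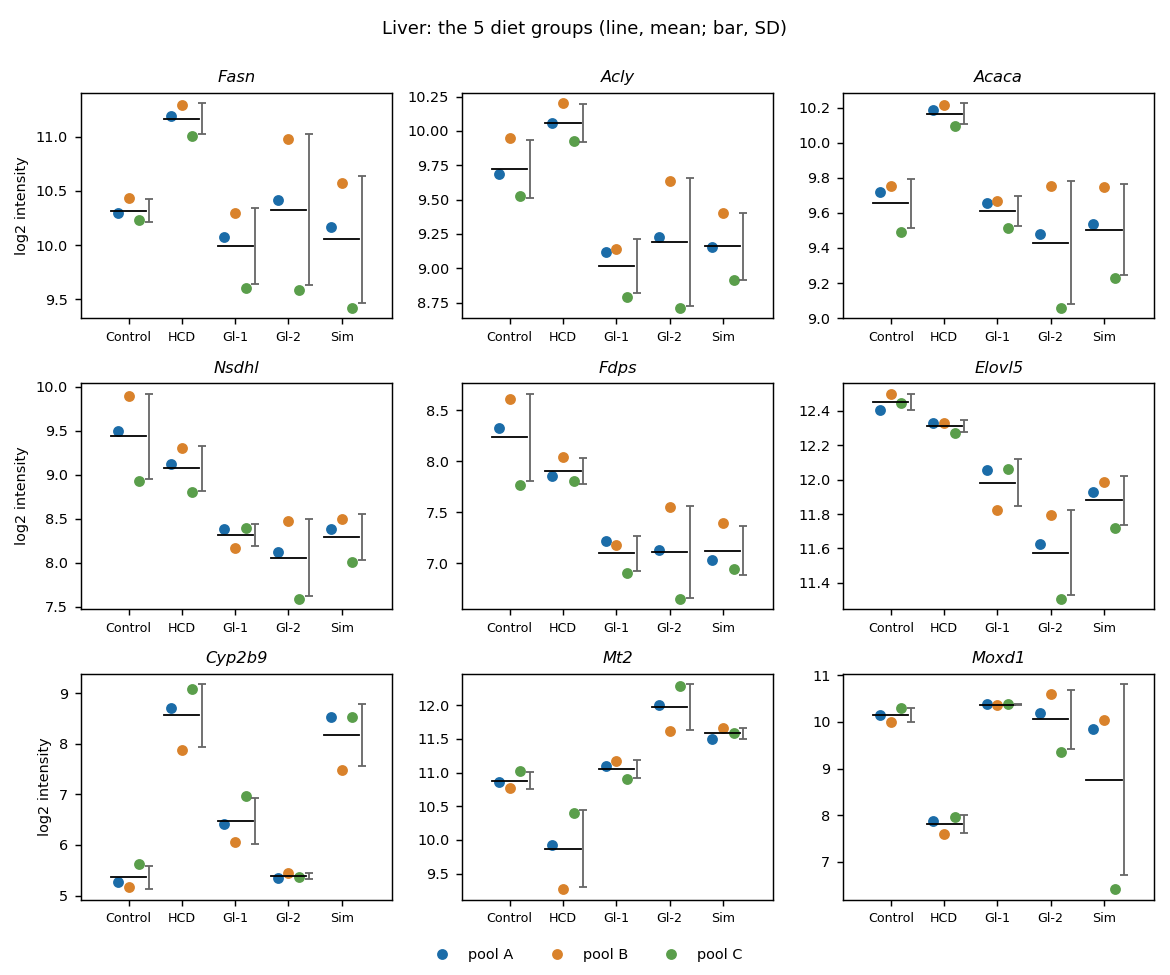
Log2 intensity of 9 genes in the 3 arrays of each of the 5 liver diet groups (points, coloured by pool; line, mean; bar, SD), each panel on its own scale. Fasn, Acly and Fdps lie below the HCD arrays in Gl-1, Gl-2 and Sim, and Cyp2b9 lies at 5.34 to 5.45 in Gl-2 and at 7.47 to 8.53 in Sim.

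The Gl-1 and Gl-2 extracts differ by the acetylsalicylic acid in the growth substrate, and their livers differed directly in 38 genes (0.172% of those tested), of which 31 were higher in HCD+Gl-2. Of the 31, 27 had also risen against HCD. Immediate early and heat shock genes had the highest values: Egr1 was higher by 2.42 (95% interval 1.45 to 3.39, limma adjusted p = 0.00317), Fos by 1.87, Jun by 1.81 and Dnajb1 by 1.59. Pools A and C of HCD+Gl-2 lay above all 3 HCD+Gl-1 arrays in all 31 genes and pool B in 15 of them, where 9.36% of all genes had their 3 HCD+Gl-2 arrays above. Pool B was nearest to HCD+Gl-1 in each of the 31, and the share of all genes for this was not counted. Mt2 was higher by 0.92 (0.59 to 1.24, adjusted p = 0.00108), with 11.62 to 12.29 against 10.90 to 11.17 and no overlap. Cyp2b9 was lower by 1.09 (adjusted p = 0.00275), reading 6.41, 6.07 and 6.96 in HCD+Gl-1. Of the genes of lipid synthesis that fell, none was called between the extracts, but Me1 and Elovl5 were lower in HCD+Gl-2 at the adjusted p alone, by -0.68 (-0.94 to -0.41, adjusted p = 0.00275) and -0.41 (-0.61 to -0.21, adjusted p = 0.017). The difference was 0.18 for Acly (-0.09 to 0.44), 0.34 for Fasn (-0.07 to 0.75), -0.26 for Nsdhl (-0.58 to 0.07) and 0.01 for Fdps (-0.32 to 0.34), and these 4 intervals allow differences of either sign. Leaving out single arrays gave 25 genes without pool C of HCD+Gl-2 and 93 without pool B of HCD+Gl-1. No gene differed when the fit was restricted to the 15 liver arrays, where 2780 genes had an unadjusted p under 0.05.

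Against simvastatin, a cholesterol-lowering statin, 63 genes differed (0.285%), 27 of them higher in HCD+Gl-2 and 36 lower. Egr1, Fos and Dnajb1 had the highest values (1.95, 1.61 and 1.56), and pool B of HCD+Gl-2 lay above all 3 HCD+Sim arrays in 9 of the 27, where 3.45% of all genes had their 3 arrays above. Cyp2b9 was lower by 2.79 (95% interval -3.22 to -2.36, limma adjusted p = 3.66e-11), and read 8.53, 7.47 and 8.52 in HCD+Sim. Of the 36 lower genes 9 belong to the list of pancreas acinar markers, among them Ctrb1 and Cpa1, and 7 to the list of skeletal muscle markers, among them Acta1 and Myh4. The 18 pancreas markers had a mean level of 6.801, 7.28 and 5.97 in HCD+Sim against 5.75 to 5.95 in HCD+Gl-2, and the 15 muscle markers 7.36, 7.71 and 6.58 against 6.35 to 6.54. The part of those tissues in the 36 genes was not tested. With liver arrays only 11 genes differed, and without pool B of HCD+Gl-2 95 did. Of the lipid synthesis and elongation lists Elovl3 was called lower than in HCD+Sim (-0.71, adjusted p = 0.0232). Mt2, Acly and Fasn did not pass, with a difference of 0.39 for Mt2 (0.06 to 0.72, adjusted p = 0.298), 0.03 for Acly (-0.23 to 0.30) and 0.27 for Fasn (-0.13 to 0.68).

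In the kidneys of the same diets all 3 HCD+Gl-2 arrays were high for the immediate early genes, pool B included. Egr1 read 10.73, 10.44 and 10.80 in HCD+Gl-2 kidney against 6.92, 6.70 and 6.45 in HCD kidney, and Nr4a1 10.47, 10.05 and 10.62 against 6.805 to 6.99. Pool B was nearest to HCD in kidney in 36 of the 46 genes that rose in liver. The share over all genes was not counted, so this is not shown to be a trait of the pool. In kidney 47 genes were called higher (0.213%) and 27 lower (0.122%) with HCD+Gl-2. Of the 46 genes that rose in liver 16 were called higher in kidney, which is 34.8% of the liver and 34% of the kidney genes, among them Egr1, Egr2, Fos, Jun, Junb, Atf3, Btg2, Dnajb1, Hspa1a, Hspa1b and Ciart. The 3 kidney arrays of HCD+Gl-2 lay above the 3 of HCD in 31 of the 46 (11.4% of all genes) and below them in 7 of the 21 that fell in liver (9.08%). Of the 21 only Npas2 was called lower in kidney. The kidneys came from the same diet groups and carry the same pool letters, and whether a pool held the same mice in both tissues is not given in the sources used here.

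The response to Gl-2 was also compared between the tissues by the contrast of both differences, which called 72 genes (0.326%). The metallothionein response was larger in liver: Mt2 read 11.34, 11.01 and 11.40 in HCD+Gl-2 kidney against 11.23 to 11.31, and the liver response exceeded it by 2.13 (95% interval 1.67 to 2.59, limma adjusted p = 2.1e-07). Cyp2b9, at 4.67 to 5.05 in all 6 kidney arrays, and Me1, at 11.85 to 11.96, had liver minus kidney differences in response of -3.09 and -1.07 (adjusted p = 4.56e-08 and 0.000822). Nr4a1 and Plk3 ran the other way, with a kidney response larger by 2.27 and 1.28 (limma adjusted p = 0.000701 and 0.0247). In both, pool B was the lowest of the 3 HCD+Gl-2 liver arrays, although for Plk3 it lay above all 3 HCD liver arrays. The difference for Egr1 did not pass (95% interval -2.88 to -0.13, adjusted p = 0.493).

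**Figure D5:**
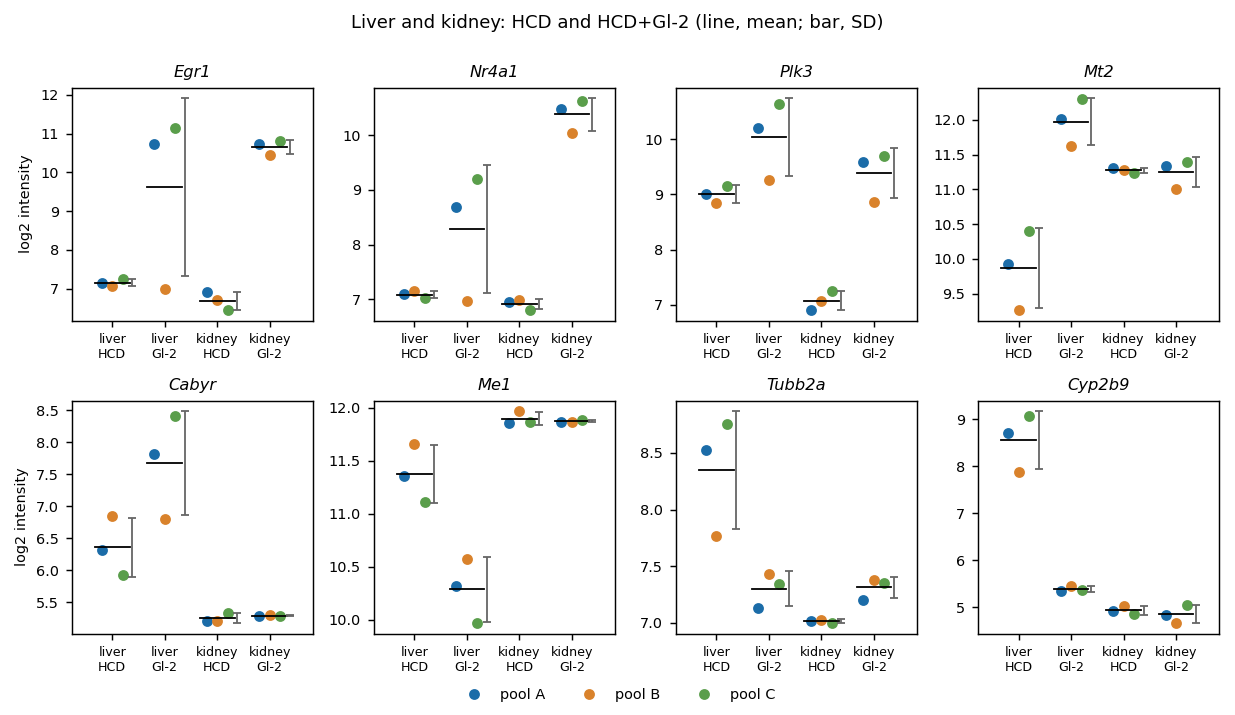
Log2 intensity of 8 genes in the HCD and HCD+Gl-2 arrays of liver and kidney (points, coloured by pool; line, mean; bar, SD), each panel on its own scale. Egr1, Nr4a1 and Plk3 are high in all 3 kidney arrays of HCD+Gl-2. In liver, pool B of HCD+Gl-2 lies below the HCD arrays for Egr1 and Nr4a1 and just above them for Plk3. Mt2, Me1 and Cyp2b9 lie apart between the diets in liver and overlap in kidney. Cabyr overlaps in both tissues, in liver through pool B.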

How the data were processed

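Liver, kidney and brain RNA pools were hybridised to Affymetrix mouse gene arrays. The deposited values are on the log2 scale: per the methods, the authors corrected intensities by RMA, quantile normalized them, attenuated a batch effect with ComBat, for which no batches are named, and retained for each gene its probe set of widest interquartile range. Such adjustment can shrink or shift differences between arrays, and the number of arrays limits precision. The table held 22080 genes, of which 13 had names turned into dates and were tested but not named.

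Groups came from the sample titles. A model with 15 group means was fitted to the 45 arrays with limma 3.58.1 in R 4.3.3 (prior and residual degrees of freedom 7.34 and 30), and p-values were adjusted by Benjamini-Hochberg over all genes within a contrast. The script was tested on simulated data. Figures used matplotlib 3.10.9 in Python 3.11.15. The comparison, the gene lists and the named genes (the 15 highest and 15 lowest DE genes, DE genes of the lists, genes the study names, and up to 4 members per list with the largest change) were chosen with earlier results of these data known. Genes outside this rule are other DE genes, list members, and Fkbp5 and Zbtb16, which were picked after their values were seen. Gene neighbours and promoters came from RefSeq (GRCm38.p6), which held 65 of the 67 DE genes.

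Alternatives were a block for the pool letter, fits to the liver arrays, to the compared groups or without pool C, a dim gene filter at a mean of 6, repeated quantile normalization, trend and robust moderation, array weights, the adjusted p alone, and each array left out.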

Additional observations from a re-analysis of the deposited data

Results flagged for a closer look

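For 16 of the DE genes the response to Gl-2 in liver differed from that in kidney by the contrast of both differences (liver minus kidney, log2 units, over 0.7 in size at a limma adjusted p of 0.05 or less). The liver response was higher by 2.13 for Mt2, 1.34 for Mt1, 1.27 for Cabyr, 1.25 for 1700001J11Rik, 1.01 for Cyp21a1 and 0.71 for Usp2. It was lower for genes that fell in liver, by -3.09 for Cyp2b9, -1.34 for Tubb2a, -1.12 for Camk1d, -1.08 for Hamp2, -1.07 for Me1, -0.98 for Acly, -0.97 for Aqp8 and -0.76 for Acss2. In Nr4a1 and Plk3 the values were -2.27 and -1.28, as both genes were higher with Gl-2 in each tissue and more so in kidney, where pool B was high as well. Cyp2b9, Hamp2, Aqp8, Cabyr and Cyp21a1 read between 4.67 and 6.24 in the HCD and HCD+Gl-2 kidney arrays.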

How the results depend on the processing

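With liver arrays only, 8 genes rose, 9 fell, 0 differed from HCD+Gl-1 and 11 from HCD+Sim, and with the compared groups only the counts were 4, 4, 0 and 6, and 47 for the difference between liver and kidney. At the 0 counts, 2780 and 2037 genes had an unadjusted p under 0.05 in limma. With pools A and B only, 24 genes rose, 13 of them among the 46, and 5 differed from HCD+Gl-1. Without a fold threshold the counts were 182 higher and 193 lower, 870 against HCD+Gl-1, 289 against HCD+Sim and 138 between tissues. Array weights, whose fit did not fully converge, gave 76 genes against HCD+Gl-1, and the dim gene filter 42 between tissues. Leaving out single arrays gave 22 (without pool C of HCD+Gl-2) to 78 (without pool B) genes that rose, 15 to 30 that fell, 25 to 93 against HCD+Gl-1, 47 to 95 against HCD+Sim and 54 to 93 between tissues. Of the 67 DE genes 29 kept their call without pool C of HCD+Gl-2, 26 with pools A and B only (Fos, Btg2 and Dnajb1 did not), 17 with liver arrays only and 8 with the compared groups only. No DE gene changed sign under any of these. Of the list medians, that of bile acid synthesis turned from -0.04 to 0.006 without pool A of HCD and ranged from -0.089 to 0.006 with single arrays left out, values with no test.

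With the pool letter as a replicate block 47 genes rose and 21 fell, 39 differed from HCD+Gl-1, 64 from HCD+Sim and 73 between tissues, and no call of the 67 was lost. Arrays of the same letter deviated from their group means with correlations of 0.129, 0.017 and 0.021, so the letters are not shown to pair the arrays. The cause of the other changes was not tested.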
